A study of Mus musculus with 3 samples.

Results

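The purinergic receptor and ectonucleotidase genes of microglia were described by 8 members, named by gene symbol among the 32285 genes measured: P2ry12, P2ry13, P2ry6, P2rx4, P2rx7, Entpd1, Adora3 and Gpr34. All 8 had unique molecular identifiers (UMIs, counted transcript molecules) in the cells kept. Their levels were read in brain cells sorted as CD45int CD11b+ on day 4, in 3 libraries of single-cell RNA sequencing. The groups were NMOSD induction with the peptide APOE130-149, NMOSD induction with a control peptide, and sham induction with PBS. Every mouse, controls included, was an APOE knockout, and each library was 1 pool of 4 mice. NMOSD stands for neuromyelitis optica spectrum disorder, in which antibodies and immune cells attack the optic nerves and spinal cord, and APOE130-149 is named after a stretch of apolipoprotein E. The design asks how microglia of mice that lack APOE look after NMOSD induction and whether the peptide changes this.

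With 1 library per group no difference has a replicate check. No test was made and no p-value is given. Intervals in brackets are exact 95% intervals of counting error only, and a difference between mice cannot be told apart from one between libraries.

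Purinergic signalling starts when cells release ATP and other nucleotides, which act on ion channels (P2X receptors) and G protein-coupled receptors (P2Y receptors) at the surface of neighbouring cells. Ectonucleotidases trim ATP to ADP and AMP, a further enzyme makes adenosine from AMP, and adenosine acts on receptors of its own. In the brain, microglia sense nucleotides leaking from damaged cells in this way and extend their processes toward the source.

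Total counts were 32060750 UMIs over 2175 barcodes with APOE130-149, 61469677 over 5306 barcodes with the control peptide and 32712199 over 4674 barcodes in sham. The filter on cells left 2025, 5011 and 4231 cells in the same 3 libraries, with medians of 9991, 7848 and 7124 UMIs. Libraries shared at most 9 cell barcodes with each other. Apoe itself was at 127, 116 and 82.1 UMIs per 1000000 UMIs (CPM) in microglia of the APOE130-149, control peptide and sham libraries. These 3′ tags need not fall in the deleted stretch of the gene, so this value does not check the knockout. Cells were assigned by sums of marker genes that hold no member of the family, with thresholds set after the files were seen. Microglia numbered 1741, 4415 and 3864 cells (86.0%, 88.1% and 91.3% of the cells kept, from APOE130-149 to sham). The other gated types were small, with 15 to 22 border-associated macrophages, 41 to 71 neutrophils and 29 to 57 monocytes per library. The marker levels that follow are of genes in the gate lists, so they result in part from the gating and are no separate check of it. Tmem119, a microglial surface protein, was at 1193, 1182 and 1168 CPM in microglia. Mrc1, the mannose receptor of border-associated macrophages, was at 2027, 2742 and 1676 CPM in those macrophages. Ly6g, a neutrophil surface protein, was at 782, 515 and 712 CPM in neutrophils and below 1 CPM in microglia.

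P2ry13 and P2ry12 lie close to each other on the minus strand of chromosome 3 (GRCm38, chr3:59207892-59210882 and chr3:59216272-59262871). P2rx7 and P2rx4 lie on the plus strand of chromosome 5 (chr5:122643911-122691432 and chr5:122707544-122729738). Adora3 is at chr3:105870858-105908926 (+), P2ry6 at chr7:100937630-100974649 (−), Entpd1 at chr19:40612366-40741602 (+) and Gpr34 at chrX:13632089-13640858 (+). Whether counting used strand is not given in the sources used here, so reads of genes that overlap members could be mixed with theirs. Med12l, which runs over P2ry12 and P2ry13 on the opposite strand, was at 45.5, 43.1 and 42.6 CPM in microglia, and Cask, opposite to Gpr34, was at 43.7, 40.6 and 47.4 CPM. Tmigd3, on the same strand as Adora3, was at 1.13, 0.906 and 0.869 CPM in microglia. P2rx4 overlapped no annotated gene.

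RefSeq promoters (GRCm38.p6, 250 bases before the transcript start to 50 after it) matched 6 of the 8 members, with 8 entries. Those of the ADP receptor pair and of the ATP channel pair are shown, because in the results that follow the members of each pair were highest in the same cell type. The channels differed from each other in monocytes. They were searched on both strands for the PU.1 motif GAGGAAGT, a site of a factor that macrophages depend on, and for the AP-1 motif TGANTCA, a site of an activation-induced factor. Capitals mark the matches, which are read on the gene's strand, so that a PU.1 match on the other strand reads as its reverse complement.
P2ry12, chr3:59262936-59263235 (−): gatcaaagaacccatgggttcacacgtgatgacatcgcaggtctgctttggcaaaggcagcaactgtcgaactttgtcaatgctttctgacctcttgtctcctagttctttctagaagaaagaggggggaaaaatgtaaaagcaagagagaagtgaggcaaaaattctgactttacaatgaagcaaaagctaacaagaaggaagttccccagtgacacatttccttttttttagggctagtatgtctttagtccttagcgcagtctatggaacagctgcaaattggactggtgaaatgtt
P2ry13, chr3:59210833-59211132 (−): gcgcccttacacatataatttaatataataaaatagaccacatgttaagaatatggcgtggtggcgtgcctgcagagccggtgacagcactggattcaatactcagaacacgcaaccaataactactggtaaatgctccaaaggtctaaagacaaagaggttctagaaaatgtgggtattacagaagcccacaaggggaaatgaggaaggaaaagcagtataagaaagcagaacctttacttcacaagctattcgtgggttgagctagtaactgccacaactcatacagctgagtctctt
P2rx7, chr5:122643677-122643976 (+): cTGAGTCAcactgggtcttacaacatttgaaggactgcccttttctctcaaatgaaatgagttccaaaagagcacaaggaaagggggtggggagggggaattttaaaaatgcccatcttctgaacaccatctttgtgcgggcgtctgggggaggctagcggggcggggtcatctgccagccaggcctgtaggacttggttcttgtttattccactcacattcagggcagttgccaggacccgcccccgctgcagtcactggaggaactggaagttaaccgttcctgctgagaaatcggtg
P2rx7, second start, chr5:122650133-122650432 (+): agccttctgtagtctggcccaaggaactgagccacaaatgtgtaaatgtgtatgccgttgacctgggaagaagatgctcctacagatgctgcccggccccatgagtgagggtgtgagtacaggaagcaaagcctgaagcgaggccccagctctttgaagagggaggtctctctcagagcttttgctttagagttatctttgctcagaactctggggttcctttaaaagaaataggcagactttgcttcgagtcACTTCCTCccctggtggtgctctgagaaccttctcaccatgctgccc
P2rx4, chr5:122707294-122707593 (+): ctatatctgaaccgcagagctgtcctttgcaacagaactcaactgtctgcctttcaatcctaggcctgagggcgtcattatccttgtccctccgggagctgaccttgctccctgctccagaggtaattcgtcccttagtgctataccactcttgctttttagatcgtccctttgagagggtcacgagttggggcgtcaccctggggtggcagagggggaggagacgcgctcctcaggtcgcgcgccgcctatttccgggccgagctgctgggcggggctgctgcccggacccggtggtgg
The P2ry12, P2ry13 and P2rx4 windows held neither motif, which says only that these letters were not in these 300 bases. The P2rx7 windows held an AP-1 match at the far end of one and a PU.1 match near the start site of the other. Adora3 held one of each, and the Entpd1 windows held neither. Among 32851 promoters of the same length, 3.20% held the PU.1 motif and 7.81% the AP-1 motif.

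In microglia the 8 members stood at nearly the same level in all 3 libraries. At least 1.5-fold apart were 0 of the 8 members and 0.525% of 8376 genes for APOE130-149 against the control peptide, 0 members and 2.47% of 8503 genes for the control peptide against sham, and 0 members and 2.65% of 8516 genes for APOE130-149 against sham. The members farthest apart were Adora3, P2ry13 and Entpd1, which stood at 0.847 to 0.921 times their sham level in the NMOSD libraries. P2ry12, the Gi-coupled ADP receptor by which microglia steer their processes toward damage, was at 2619 CPM [2600–2639] in the APOE130-149 library, 2409 [2396–2422] in the control peptide library and 2623 [2604–2641] in the sham library. The control peptide library was the lowest of the 3, with a ratio of 0.919 [0.910–0.927] to sham, while APOE130-149 stood at 1.09 [1.08–1.10] times the control peptide and 0.999 [0.989–1.01] times sham. On the log2 scale P2ry12 stood at −0.12 for the control peptide against sham, beside a median of −0.07 over all genes compared. P2ry13, a second ADP receptor of the same branch, was at 445 CPM [437–454] with APOE130-149, 415 [410–421] with the control peptide and 484 [476–491] in sham. Both NMOSD libraries were below sham, with ratios of 0.921 [0.899–0.944] for APOE130-149 and 0.859 [0.841–0.878] for the control peptide. With each cell weighted equally, however, the log2 ratio of the control peptide to sham was −0.06 rather than −0.22, and that of APOE130-149 to sham turned to 0.0056 against −0.12.

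P2ry6 answers UDP and is known for driving phagocytosis in microglia. It was at 333 CPM [326–340] with APOE130-149, 348 [343–353] with the control peptide and 335 [329–342] in sham. The control peptide library was the highest, at 1.04 [1.01–1.07] times sham, and APOE130-149 stood at 0.956 [0.932–0.981] times the control peptide.

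P2rx4 and P2rx7 are ATP-gated cation channels, and P2rx7 is known for setting off the NLRP3 inflammasome. P2rx4 was at 141 CPM [137–146], 140 [137–144] and 143 [138–147] in the APOE130-149, control peptide and sham libraries. Its intervals overlapped in all 3, and the side of 1 on which its ratios fell depended on the scaling. P2rx7 was at 123 CPM [118–127], 127 [124–130] and 132 [128–136] in the same libraries. APOE130-149 stood at 0.927 [0.885–0.972] times sham for P2rx7.

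Entpd1 encodes CD39, the ectonucleotidase that turns ATP into ADP and AMP at the microglial surface. It was at 340 CPM [333–347] with APOE130-149, 346 [341–351] with the control peptide and 380 [373–387] in sham. Both NMOSD libraries were lower than sham, with ratios of 0.894 [0.869–0.919] and 0.909 [0.888–0.931], and not apart from each other beyond counting error (0.983 [0.958–1.01]). With each cell weighted equally the log2 ratio to sham was −0.04 for APOE130-149 and −0.02 for the control peptide, against −0.16 and −0.14 for the sums. The median over all genes compared, from the sums, was −0.05 and −0.07 in the same order.

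Adora3, the adenosine receptor of this family, was at 134 CPM [130–139] with APOE130-149, 130 [127–133] with the control peptide and 153 [149–158] in sham. The ratio to sham was 0.875 [0.837–0.914] with APOE130-149 and 0.847 [0.816–0.880] with the control peptide. Unlike those of P2ry13 and Entpd1, these differences were as large with each cell weighted equally, at −0.20 and −0.25 on the log2 scale against −0.19 and −0.24 for the sums.

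Gpr34, a receptor for lysophosphatidylserine that is related to the P2Y receptors by sequence, was at 1787 CPM [1771–1804] with APOE130-149, 1695 [1684–1707] with the control peptide and 1735 [1720–1750] in sham. The APOE130-149 library was the highest of the 3, at 1.03 [1.02–1.04] times sham and 1.05 [1.04–1.07] times the control peptide. The control peptide stood at 0.977 [0.966–0.988] times sham, a ratio that turned above 1 when the libraries were rescaled by the median of ratios or TMM.

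**Figure D1:**
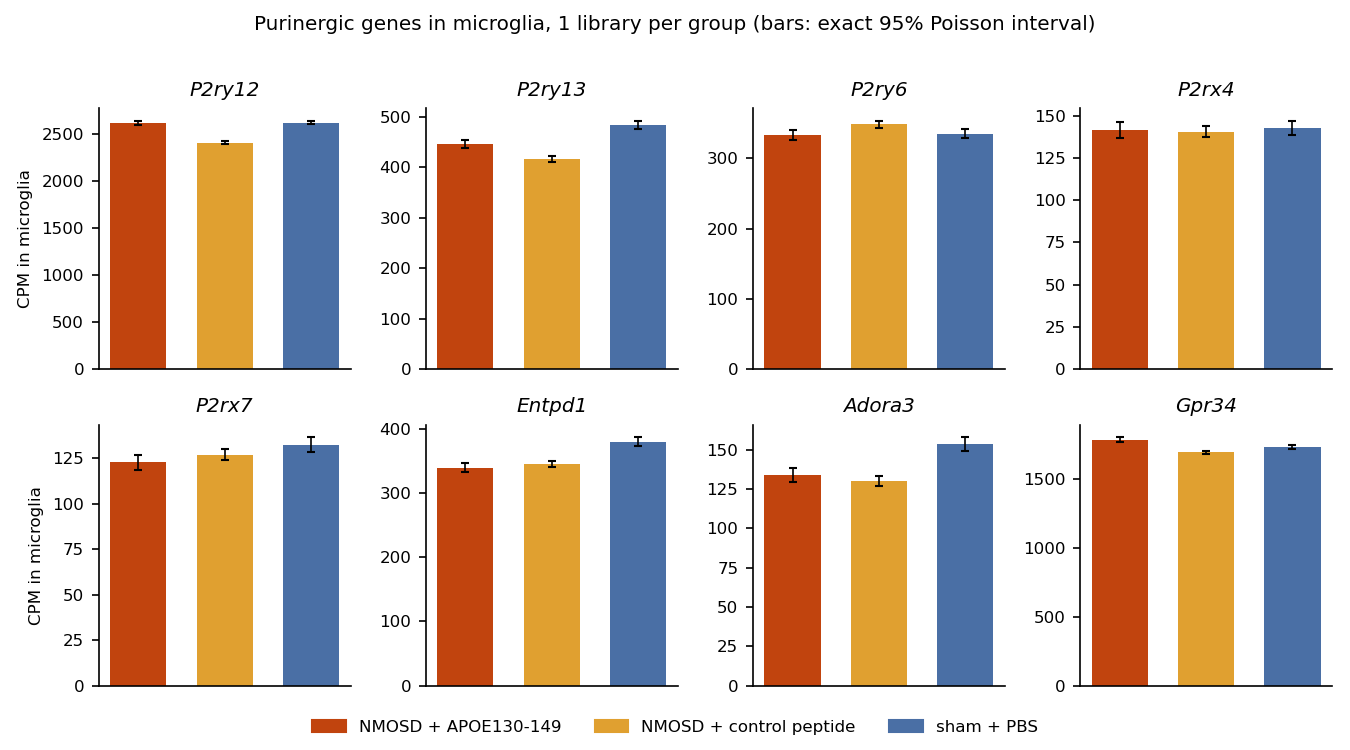
Level of each member in microglia of each library, in CPM, with exact 95% Poisson intervals as bars and each vertical axis starting at 0. No pair of libraries differs by 1.5-fold, and P2ry13, Entpd1 and Adora3 are highest in sham with intervals that do not overlap those of the NMOSD libraries.

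A count of 0 of 8 is near those background shares, and the members' medians lay about as far from 0 as those of all genes compared, or slightly farther. Their median log2 ratio was 0.03 for APOE130-149 against the control peptide, −0.09 for the control peptide against sham and −0.06 for APOE130-149 against sham, beside medians over all genes of 0.01, −0.07 and −0.05. The central 95% of genes lay between −0.25 and 0.32, between −0.47 and 0.38, and between −0.48 and 0.46, in the same order of comparisons. The 3 comparisons share libraries, so they are not independent of each other. Barcodes with under 1 in 3 of their library's median UMIs made up 9.82%, 6.41% and 23.6% of microglia in the APOE130-149, control peptide and sham libraries, and their part in the differences from sham was not tested beyond removing them, which moved no member past 1.5-fold.

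In the wider pathway no gene compared was 1.5-fold apart either, but Kcnj2 and Rhoa lay farther apart than any member. Of 63 genes in 9 lists (P2X, P2Y, adenosine and lysophosphatidylserine receptors, ectonucleotidases, adenosine uptake and breakdown, ATP release channels, Gi signalling of P2Y12, and the inflammasome downstream of P2X7), 33 reached 10 CPM in microglia of at least 1 library and none was 1.5-fold apart in any comparison, beside the same shares of 0.525%, 2.47% and 2.65% over all genes. Nearest to that distance was Kcnj2, which encodes the inward rectifier potassium channel Kir2.1, at 48.6 CPM with APOE130-149, 34.7 CPM with the control peptide and 52.0 CPM in sham. Its ratio was 1.40 [1.30–1.505] for APOE130-149 against the control peptide and 0.668 [0.624–0.715] for the control peptide against sham. Rhoa, a small GTPase of the cytoskeleton, was at 626, 611 and 484 CPM in the same libraries, a ratio of 1.29 for APOE130-149 to sham and 1.26 for the control peptide to sham. Gnai2, an inhibitory G protein subunit, was at 900, 909 and 774 CPM.

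In the inflammasome list, Nlrp3 was at 72.9, 67.7 and 65.7 CPM and Il1b at 16.9, 15.5 and 15.2 CPM, in the order APOE130-149, control peptide, sham. Slc29a3, a nucleoside transporter of lysosomes, was at 407, 407 and 403 CPM. Pnp, which splits purine nucleosides, was at 236, 239 and 225 CPM. Several relatives of the members were close to absent from microglia. The ADP receptor gene P2ry1 had 1, 4 and 0 UMIs in all microglia of the 3 libraries. P2rx1 was at 7.36, 7.46 and 7.65 CPM, Adora1 at 4.04, 4.65 and 3.74 CPM, and Adora2a at 0.151, 0.135 and 0.200 CPM. Nt5e encodes CD73, the enzyme that makes adenosine from the AMP left by CD39. It was at 30.6, 31.2 and 29.7 CPM in neutrophils, against 0.189, 0.0386 and 0.134 CPM in microglia of the APOE130-149, control peptide and sham libraries.

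The family was far less even across cell types than across groups. In border-associated macrophages, which live along the meninges and vessels of the brain, P2rx4 and P2rx7 were higher than in microglia of the same library and 5 members were lower. P2ry6 was over 1.5-fold higher in the control peptide library and near level in the other two. The count of 2 members at least 1.5-fold higher in all 3 libraries stands beside 10.6% of all 1709 genes at 100 CPM or more, and the 5 lower ones beside 16.0%.

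P2ry12 was at 418 CPM [306–558] in border-associated macrophages, against 2619 CPM in microglia of the APOE130-149 library. It was at 274 [179–402] against 2409 CPM in the control peptide library, and at 270 [200–357] against 2623 CPM in the sham library. That is 6.26-, 8.79- and 9.71-fold lower in the macrophages, with no overlap between the types in any library. P2ry13 was at 54.5, 94.9 and 116 CPM in the macrophages, from 6, 9 and 21 UMIs, against 445, 415 and 484 CPM in microglia. Gpr34 was at 509, 359 and 358 CPM in the macrophages, against 1787, 1695 and 1735 CPM in microglia, so it was 3.51-, 4.73- and 4.84-fold lower.

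For the ATP channels the order of the types was the opposite. P2rx4 was at 291 CPM [199–411], 295 [196–427] and 391 [306–494] in border-associated macrophages of the APOE130-149, control peptide and sham libraries, against 141, 140 and 143 CPM in microglia. Its ratio to microglia was 2.06 [1.40–2.91], 2.10 [1.40–3.04] and 2.75 [2.14–3.47], on 32, 28 and 71 UMIs. P2rx7 was at 282 CPM [191–400], 390 [275–538] and 248 [181–332] in the macrophages, against 123, 127 and 132 CPM in microglia. Its ratio was 2.30 [1.56–3.27], 3.08 [2.16–4.24] and 1.88 [1.37–2.52], above 1 in each library. The UDP receptor gene P2ry6 was at 327 [229–453], 591 [446–767] and 380 [296–481] CPM in the macrophages, against 333, 348 and 335 CPM in microglia. Its ratio of 1.70 [1.28–2.20] in the control peptide library exceeded 1.5-fold, while 0.983 [0.688–1.36] with APOE130-149 and 1.13 [0.882–1.44] in sham did not differ from 1 beyond counting error.

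Entpd1 was at 173, 179 and 187 CPM in border-associated macrophages, against 340, 346 and 380 CPM in microglia, with ratios of 0.508 [0.306–0.794], 0.519 [0.302–0.831] and 0.493 [0.341–0.689]. Adora3 was the member with the fewest UMIs in these cells, at 4, 0 and 3. Its ratio was 0.271 [0.0738–0.695] with APOE130-149 and 0.108 [0.0222–0.315] in sham. In the control peptide library it was at least 4.11-fold lower than in microglia with the count of 0 set to 3 UMIs, while the exact 95% interval allows a ratio of up to 0.2995, or at least 3.34-fold lower.

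These values rest on 19, 15 and 22 cells, which also held microglia marker RNA at 18.8%, 23.0% and 20.8% of the microglial level in the APOE130-149, control peptide and sham libraries. Single markers ranged from 0% to 62.2%, from 3.53% to 84.9% and from 1.69% to 57.7%, with Fcrls the highest each time, and its part in the lower members was not tested. P2ry12 stood at 16.0%, 11.4% and 10.3% of its microglial level in the macrophages and P2ry13 at 12.2%, 22.8% and 23.9%, below the marker sum or within counting error of it. Gpr34, at 28.5%, 21.1% and 20.7%, was above it beyond counting error with APOE130-149 and not in the other libraries. Against the median marker Gpr34 was above beyond counting error in every library. P2ry12 with APOE130-149, and P2ry13 with the control peptide and in sham, were above that median as well. P2rx4 and P2rx7 exceeded all 11 microglia markers on this scale, as did P2ry6. The counts depend on the gate. With cells included that also carried markers of another type (56, 115 and 56 cells, microglia markers at 20146, 22133 and 14081 CPM), or with the clusters that took this name (157, 342 and 69 cells), none of the 8 members was 1.5-fold apart in all 3 libraries. Those clusters held microglia markers at 24720.5, 24015.5 and 15959.9 CPM and macrophage markers at 1422, 1305 and 3102 CPM, so they contain much microglial RNA.

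**Figure D2:**
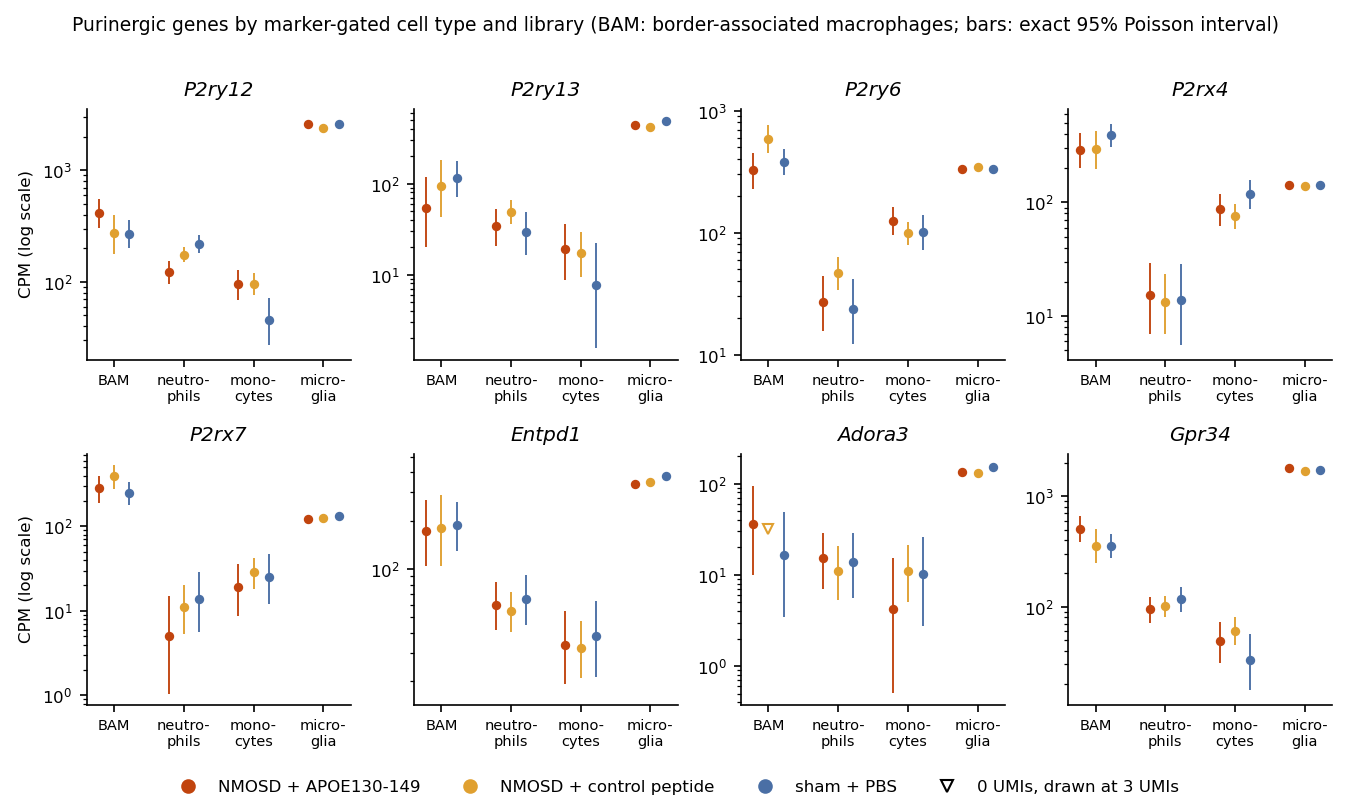
Level of each member in CPM (log axis) in border-associated macrophages (BAM), neutrophils, monocytes and microglia, with 1 point per library, exact 95% Poisson intervals, and an open triangle at 3 UMIs where none was counted. P2ry12, P2ry13, Entpd1, Adora3 and Gpr34 stand highest in microglia in every library, whereas P2rx4 and P2rx7 stand highest in BAM.

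All 8 members were lower in neutrophils than in microglia by at least 1.5-fold in each library, as were 55.9% of 1810 genes. P2ry12 was at 122 [95.8–154], 176 [150–206] and 220 [181–265] CPM in neutrophils, against 2619, 2409 and 2623 CPM in microglia of the APOE130-149, control peptide and sham libraries. That is 4.68%, 7.30% and 8.38% of the microglial level, close to the 5.81%, 7.39% and 8.99% at which the sum of 11 microglia markers stood in the same cells. At or near that sum, a level cannot be told apart from microglial RNA held by these cells, so it is not read as expression. The sum itself is limited by the gate. Entpd1 stood above that sum, at 59.5 [41.5–82.8], 54.5 [40.4–72.1] and 65.3 [45.0–91.7] CPM in neutrophils against 340, 346 and 380 CPM in microglia. Its share of the microglial level was 17.5% [12.2–24.4], 15.8% [11.7–20.9] and 17.2% [11.8–24.1], while single microglia markers reached at most 14.4%, 13.1% and 17.3%, with Selplg the highest. The median marker stood at 4.64%, 6.59% and 7.62%, below the interval of Entpd1 in each library. No member had fewer UMIs in neutrophils than P2rx7, with 3, 10 and 7 in 44, 71 and 41 cells. As a share of its microglial level P2rx7 stood at 4.16%, 8.77% and 10.5%, within counting error of the marker sum.

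In monocytes 7 members were lower than in microglia by at least 1.5-fold in all 3 libraries, as were 32.8% of 1882 genes, and none was 1.5-fold higher, as were 30.8%. P2rx4 was the exception. It was at 86.6 [62.2–118], 75.5 [57.8–97.0] and 119 [87.6–159] CPM in monocytes, against 141, 140 and 143 CPM in microglia of the APOE130-149, control peptide and sham libraries. The ratio was 0.612 [0.439–0.832], 0.538 [0.411–0.692] and 0.837 [0.614–1.11], so in sham the types did not differ beyond counting error. P2ry6 was the next, at 125 [94.9–161], 99.0 [78.5–123] and 102 [72.5–138] CPM in monocytes, with ratios of 0.374 [0.285–0.483], 0.284 [0.225–0.354] and 0.303 [0.216–0.413]. Both lay above every one of the 11 microglia markers, which held 0% to 20.2% of their microglial level in monocytes and 6.52%, 7.01% and 6.30% as a sum. The gate for monocytes limits these marker levels.

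The other members were low in monocytes. P2ry12 was at 95.1, 96.6 and 45.7 CPM, or 0.0363, 0.0401 and 0.0174 times the level in microglia. Gpr34 was at 48.6, 60.7 and 33.0 CPM and P2ry13 at 19.0, 17.3 and 7.61 CPM. These shares of 1.57% to 4.27% of the microglial level were below the microglia marker sum in the same cells. P2rx7 was at 19.0, 28.5 and 25.4 CPM, with a ratio of 0.155 [0.0709–0.295], 0.224 [0.142–0.337] and 0.192 [0.0920–0.353]. Its share of the microglial level thus lay above the marker sum beyond counting error in each library, but not above every single marker. Entpd1 was at 33.8, 32.2 and 38.1 CPM, or 10.1-, 10.7- and 9.99-fold lower than in microglia. Adora3 had 2, 9 and 4 UMIs. Another adenosine receptor gene, Adora2b, was at 10.6, 32.2 and 50.8 CPM in monocytes, against 0.0377, 0.0579 and 0.0668 CPM in microglia.

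**Figure D3:**
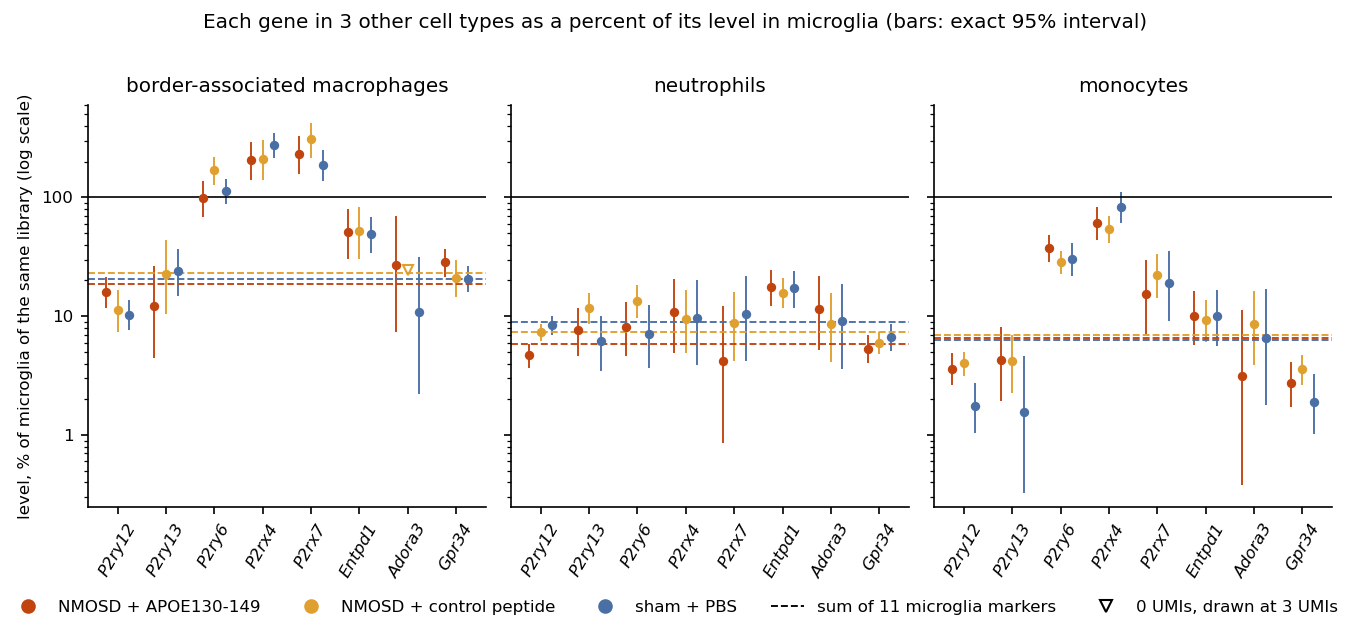
Each member's level in 3 other cell types as a percent of its level in microglia of the same library (log axis), with exact 95% intervals and dashed lines for the summed 11 microglia markers. P2rx4, P2rx7 and P2ry6 in border-associated macrophages, and P2rx4 and P2ry6 in monocytes, stand far above the dashed lines, whereas P2ry12 and Gpr34 stand near or below them in neutrophils and monocytes. The gates limit the marker sum in these types.

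The 8 members thus had different orders over the 4 types. P2rx4 ran from border-associated macrophages through microglia and monocytes to neutrophils in every library, with the microglia and monocytes of sham not apart beyond counting error. P2rx7 ran from border-associated macrophages through microglia and monocytes to neutrophils, with the intervals of monocytes and neutrophils overlapping in every library. The neutrophil levels of both channels held the microglia marker sum within their intervals in every library, so they are not read as expression. P2ry6 was level between border-associated macrophages and microglia within counting error in the APOE130-149 and sham libraries, with monocytes below both and neutrophils last. The neutrophil level of P2ry6 held the microglia marker sum within its interval with APOE130-149 and in sham. With the control peptide it lay above that sum, at 13.4% [9.67–18.2] of the microglial level against 7.39%. For P2ry12, P2ry13, Entpd1, Adora3 and Gpr34 microglia came first, apart from every other type in each library. Entpd1 followed in border-associated macrophages and then in neutrophils, whose intervals overlapped those of monocytes in every library. In monocytes the interval of Entpd1 held the marker sum. The levels of P2ry12, P2ry13, Adora3 and Gpr34 in the other 3 types lay below the marker sum or within counting error of it, apart from Gpr34 in macrophages with APOE130-149 and P2ry13 in neutrophils of the control peptide library. Against the median marker more of these levels lay above it, among them Gpr34 in macrophages of every library. The reading thus depends on the yardstick, and no order of expression among those types is read for these members.

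Over the 12 points of 3 libraries and 4 types, the genes most like each member were found among 5279 genes by Pearson's r of log2(CPM + 1), as a description with no test, since the points share libraries and the 4 types set the pattern. The nearest to P2ry12 were Crybb1 (r = 0.985), Sall3 (0.984) and Csnk1e (0.984), and the nearest to P2ry13 were Lpcat2 (0.984), Cyb561a3 (0.969) and Bhlhe41 (0.968). P2ry6 was nearest to Hs6st1 (0.989), Tlr7 (0.986) and Pura (0.986). The channel gene P2rx4 was nearest to Tmem176b (0.989), Atp13a2 (0.988) and Tmem176a (0.982), and P2rx7 to Wtip (0.992), Swap70 (0.986) and Crbn (0.986). Entpd1 was nearest to Phyhd1 (0.990), Sgce (0.986) and Son (0.985), Adora3 to Camk2n1 (0.965), Lhfpl2 (0.960) and Slc46a1 (0.954), and Gpr34 to Cd81 (0.996), Ctsf (0.992) and Sgce (0.984). Sgce was named for both Entpd1 and Gpr34.

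Detection per cell was compared after each cell was thinned to 3000 UMIs, which left out 159, 320 and 977 shallower microglia of the APOE130-149, control peptide and sham libraries. A UMI of P2ry12 was found in 99.2%, 98.9% and 99.3% of thinned microglia, and of Gpr34 in 98.5%, 98.1% and 97.6%. These receptors were thus seen in nearly every microglial cell. P2ry13 was found in 72.1%, 70.1% and 74.5%, Entpd1 in 62.7%, 63.2% and 66.9%, and P2ry6 in 60.1%, 63.3% and 62.9%. P2rx4 was found in 32.2%, 31.5% and 32.0%, P2rx7 in 31.0%, 33.0% and 34.1%, and Adora3 in 32.4%, 32.7% and 36.7%. All 8 members were thus seen in over 25% of thinned microglia of every library.

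Without thinning, the deeper libraries showed more. P2rx4 was found in 66.2%, 61.2% and 50.6% of all microglia, in the order APOE130-149, control peptide, sham, and P2ry13 in 91.8%, 90.7% and 81.3%. The median UMIs of these microglia were 9959, 7797 and 7282. Thinned neutrophils were taken as the comparison type (median 11571.5, 10249 and 11455 UMIs before thinning). In them P2ry12 was found in 19.5%, 19.7% and 38.9% of cells and Gpr34 in 12.2%, 16.7% and 30.6%. Free RNA, doublets and expression in neutrophils cannot be told apart here. P2rx4 was found in 4.88%, 0% (0 of 66 cells) and 8.33% of neutrophils, and P2rx7 in 0% (0 of 41 cells), 3.03% and 8.33%. The exact 95% intervals of these zeros reach 5.44% and 8.60%, and 3 cells would be 4.55% and 7.32%. In thinned border-associated macrophages, P2rx4 was found in 58.3%, 66.7% and 52.6% of 12, 12 and 19 cells. A thinned microglial cell held a median of 5 of the 8 members in every library (quartiles 4 and 6), a border-associated macrophage 3, 4 and 3, a monocyte 1, and a neutrophil 0, 0 and 1.

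**Figure D4:**
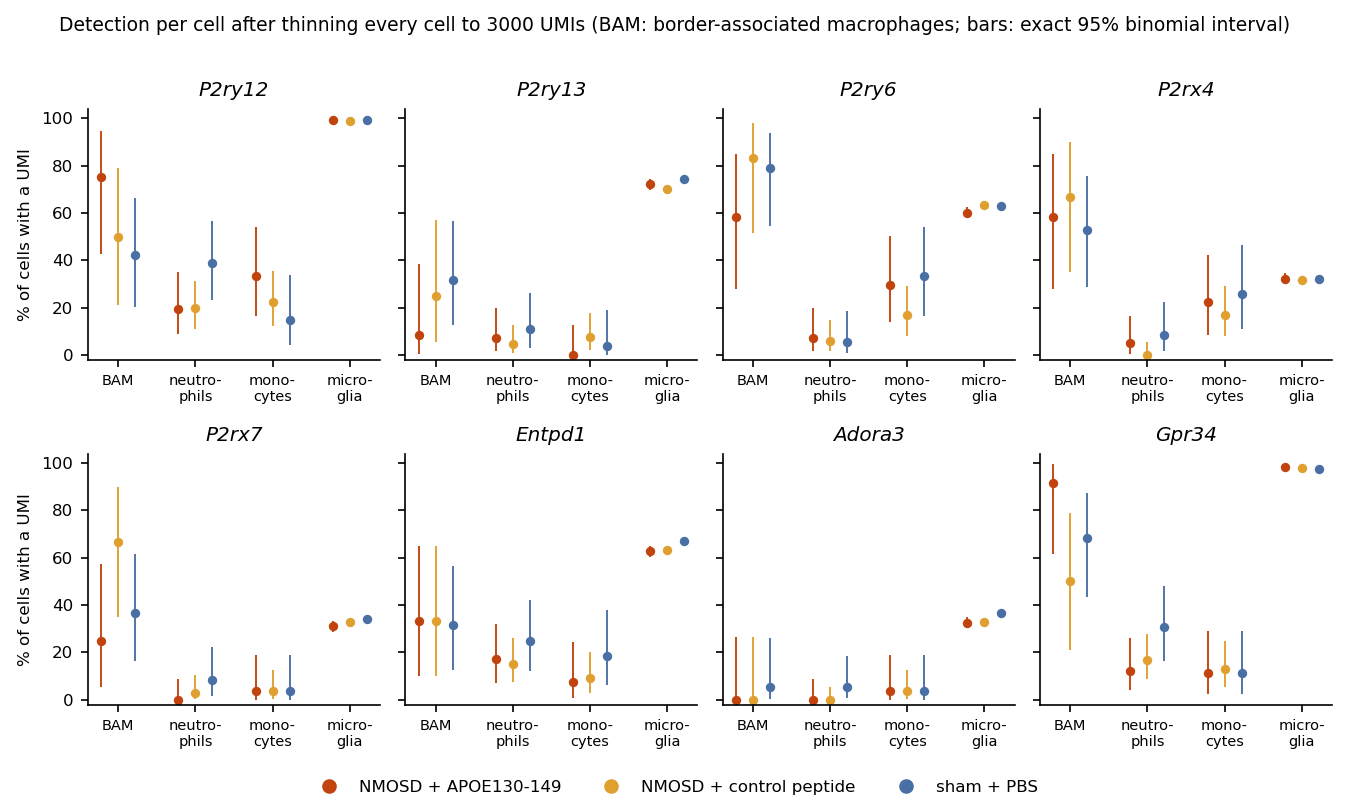
Percent of cells with at least 1 UMI of each member after thinning every cell to 3000 UMIs, by cell type and library, with exact 95% binomial intervals. P2ry12 and Gpr34 reach over 97% in microglia, and every member is found in a larger share of microglia than of neutrophils.

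Among microglia, 3 states were set apart by other genes: interferon-high cells by 15 interferon-induced genes, Spp1/Lpl-high cells by osteopontin (Spp1) and lipoprotein lipase (Lpl), and dividing cells by 13 cell cycle genes. Spp1/Lpl-high cells numbered 102, 195 and 70 in the APOE130-149, control peptide and sham libraries (5.86%, 4.42% and 1.81% of microglia), dividing cells 78, 169 and 90, and interferon-high cells 68, 189 and 165. In all, 40, 84 and 34 cells were in more than 1 state. A state is a range cut from a score, and 28, 51 and 36 cells lay within 1.2-fold of the Spp1/Lpl limit, 4, 14 and 7 of the dividing limit, and 47, 142 and 92 of the interferon limit.

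Spp1/Lpl-high microglia had lower levels of most members than other microglia. P2ry12, P2ry13, Entpd1, Adora3 and Gpr34 were at least 1.5-fold lower in all 3 libraries, beside 10.5% of 1678 genes at 100 CPM or more, and no member was 1.5-fold higher, beside 10.1%. P2ry12 was at 1301, 1092 and 1038 CPM in Spp1/Lpl-high cells of the APOE130-149, control peptide and sham libraries, against 2771, 2527 and 2681 CPM in other microglia. The ratio was 0.469 [0.454–0.485], 0.432 [0.420–0.445] and 0.387 [0.365–0.411], the lowest of the 8 members in each library. P2ry13 was at 251, 208 and 240 CPM, against 468, 434 and 492 CPM, with ratios of 0.537 [0.497–0.580], 0.480 [0.449–0.514] and 0.487 [0.429–0.552].

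The ectonucleotidase gene Entpd1 was at 193, 167 and 165 CPM in Spp1/Lpl-high cells, against 357, 362 and 388 CPM in other microglia. The ratio was 0.542 [0.496–0.592] with APOE130-149, 0.463 [0.429–0.499] with the control peptide and 0.425 [0.364–0.494] in sham. Gpr34 was at 1103, 1031 and 1051 CPM, against 1866, 1755 and 1760 CPM, with nearly the same ratio in each library (0.591, 0.588 and 0.597). Adora3 was at 86.0, 74.3 and 89.1 CPM, against 140, 135 and 156 CPM. P2rx7 was lower by less than 1.5-fold with APOE130-149 (0.681 [0.594–0.778]) and by more with the control peptide (0.527 [0.467–0.592]) and in sham (0.594 [0.473–0.737]). P2ry6 was at 270, 263 and 261 CPM, against 340, 356 and 338 CPM, a ratio of 0.795, 0.738 and 0.772.

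P2rx4, in contrast, was not lower in every library. It was at 160, 119 and 152 CPM in Spp1/Lpl-high cells of the APOE130-149, control peptide and sham libraries, against 139, 142 and 142 CPM in other microglia. Its ratio was 1.15 [1.04–1.27], 0.839 [0.766–0.919] and 1.07 [0.905–1.2496]. In thinned cells it was found in 39.6%, 30.5% and 38.5% of Spp1/Lpl-high cells, against 31.7%, 31.5% and 31.9% of other microglia. P2ry12 was still found in 93.1%, 89.3% and 89.2% of thinned Spp1/Lpl-high cells, against 99.6%, 99.4% and 99.5% of other microglia.

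Spp1/Lpl-high cells were deep, with medians of 22097, 18247 and 12550.5 UMIs against 9725, 7695 and 7252.5 in other microglia. Against other microglia matched on UMIs the P2ry12 ratio was 0.527, 0.464 and 0.431, and the Gpr34 ratio 0.686, 0.643 and 0.682, which put Gpr34 short of 1.5-fold and left 4 members past it. All 11 microglia markers together were also lower in these cells, at 20945, 19074 and 19984 CPM against 28728, 28162 and 25927 CPM, and Tmem119 was at 728, 640 and 608 CPM against 1247, 1230 and 1189 CPM. Monocyte markers summed to 295, 330 and 39.8 CPM, against 53.3, 79.6 and 61.7 CPM in other microglia, so they were higher in both NMOSD libraries and lower in sham. Their part in the member levels was not tested.

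**Figure D5:**
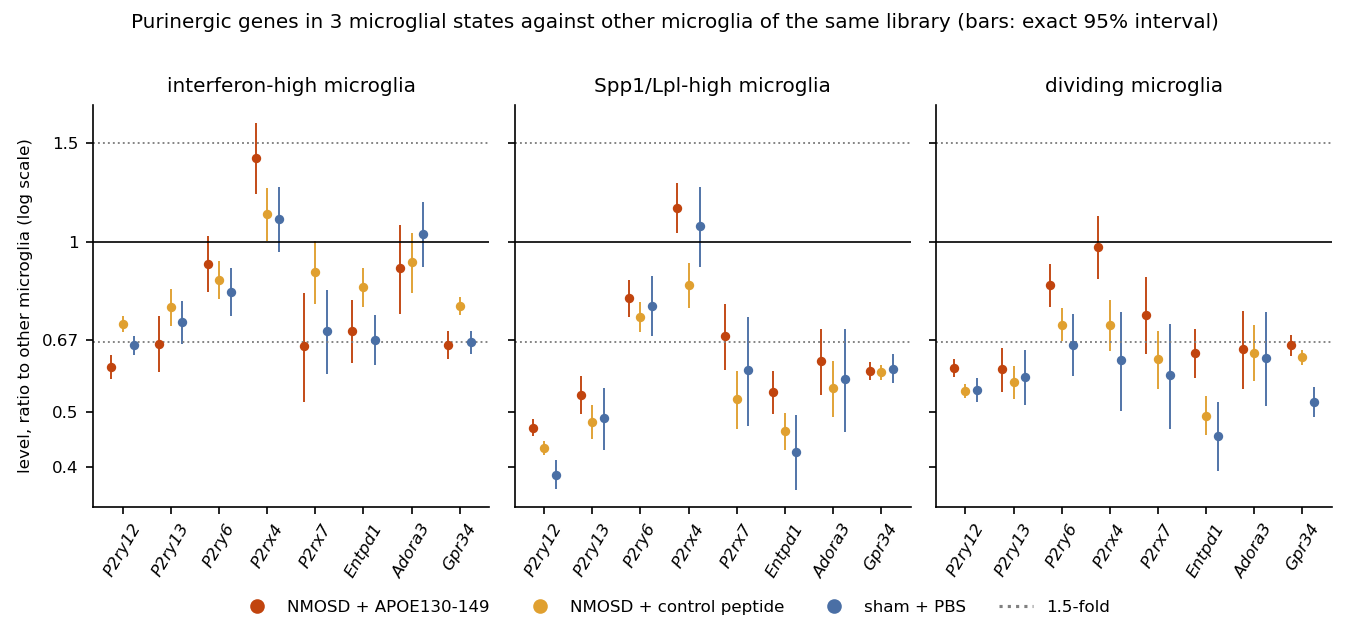
Ratio of each member's level in 3 microglial states to its level in all other microglia of the same library (log axis), with exact 95% intervals and dotted lines at 1.5-fold. In Spp1/Lpl-high and dividing cells most members lie below 1, P2ry12 is the lowest member in Spp1/Lpl-high cells, and P2rx4 lies above 1 in interferon-high cells.

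Dividing microglia were lower in the same 5 members by at least 1.5-fold in all 3 libraries, beside 6.43% of 1727 genes, and no member was 1.5-fold higher, beside 11.3%. Because a cell could be in more than 1 state, this result is not independent of that for Spp1/Lpl-high cells. P2ry12 was at 1613, 1358 and 1458 CPM in dividing cells of the APOE130-149, control peptide and sham libraries, against 2696, 2489 and 2669 CPM in other microglia. The ratio was 0.598 [0.577–0.621], 0.546 [0.530–0.561] and 0.546 [0.520–0.573]. Entpd1 was at 222, 177 and 176 CPM, against 349, 359 and 388 CPM, with ratios of 0.636 [0.575–0.702], 0.493 [0.455–0.533] and 0.453 [0.393–0.521]. It was thus nearer to other microglia in the APOE130-149 library than in the others. Gpr34 was at 1202, 1088 and 922 CPM, against 1832, 1742 and 1768 CPM. P2ry13 had ratios of 0.595, 0.564 and 0.577, and Adora3 of 0.647, 0.637 and 0.624.

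The channel gene P2rx4 was at 139, 102 and 89.3 CPM in dividing cells, against 142, 143 and 145 CPM in other microglia. The ratio was 0.980 [0.860–1.11] with APOE130-149, 0.713 [0.641–0.791] with the control peptide and 0.617 [0.503–0.751] in sham. P2rx7 and P2ry6 were lower as well, with ratios of 0.743, 0.620 and 0.581 for P2rx7 and 0.839, 0.714 and 0.659 for P2ry6. Dividing cells were deeper than other microglia, at medians of 17785.5, 17873 and 9560 UMIs against 9850, 7721 and 7268.5. Against other microglia matched on UMIs, P2ry12 alone stayed 1.5-fold lower in all 3 libraries (0.654, 0.633 and 0.595). The microglia markers summed to 23152, 21447 and 20853 CPM in dividing cells, against 28286, 27871 and 25913 CPM in the others.

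In interferon-high microglia no member was 1.5-fold apart in all 3 libraries, beside 4.94% of 1619 genes higher and 0.247% lower. P2ry12 was at 1600, 1748 and 1752 CPM in interferon-high cells of the APOE130-149, control peptide and sham libraries, against 2661, 2439 and 2670 CPM in other microglia. Its ratio was 0.601 [0.572–0.631], 0.717 [0.694–0.740] and 0.656 [0.631–0.682], past 1.5-fold with APOE130-149 and in sham. Gpr34 was at 1189, 1322 and 1174 CPM, against 1812, 1712 and 1766 CPM, and P2ry13 had ratios of 0.660, 0.766 and 0.721. Entpd1 was lower too, with ratios of 0.695 [0.610–0.789], 0.832 [0.768–0.899] and 0.672 [0.607–0.743], as was P2rx7, with 0.654, 0.886 and 0.695.

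P2rx4 stood on the other side. It was at 196, 156 and 156 CPM in interferon-high cells, against 139, 140 and 142 CPM in other microglia of the APOE130-149, control peptide and sham libraries. The ratio was 1.41 [1.22–1.63] with APOE130-149, 1.12 [1.003–1.247] with the control peptide and 1.10 [0.959–1.2495] in sham, so in sham it did not differ from 1 beyond counting error. P2ry6 was a little lower, with ratios of 0.916, 0.857 and 0.816. Adora3 was within counting error of level against all other microglia, with 0.898 [0.745–1.07], 0.921 [0.812–1.04] and 1.03 [0.904–1.18]. Depth differed less here than for the other states, with medians of 10492, 8925 and 8249 UMIs. Against other microglia matched on UMIs, Adora3 was lower with APOE130-149 (0.716 [0.564–0.906]) and with the control peptide (0.841 [0.713–0.992]). In sham its matched ratio was 1.12, not apart from 1 beyond counting error. The matched P2rx4 ratio was 1.349, 1.15 and 1.19, above 1 beyond counting error with APOE130-149 only. The microglia markers summed to 23865, 24396 and 22918 CPM in interferon-high cells, against 28090, 27554 and 25870 CPM in other microglia. Monocyte markers summed to 318, 189 and 248 CPM, against 68.5, 96.1 and 50.7 CPM, and their part in the P2rx4 level was not tested.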

How the data were processed

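The 3 deposited matrices hold raw UMI counts, whole numbers for each gene in each cell barcode, as the values show and per the file headers. Libraries were made with the 10x Genomics single-cell 3' v.2 kit, per the labels' protocols. The submitters' processing notes list Cell Ranger 5.0.1, Seurat 4.3.0 and the mm10 build, whereas the matrix headers name cellranger 7.0.1. Whether intronic reads or strand were counted is not given in the sources used here.

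Kept cells had 500 genes or more and no more than 10% of UMIs from mitochondrial genes. Cell types were gated on the summed UMIs of their markers per 10000: microglia at 100 or more over 11 markers, and, with at least 3 markers detected, border-associated macrophages at 20 over 11, neutrophils at 1000 over 12 and monocytes at 20 over 10. Cells past the limit of a further gated type, of neutrophil markers (100, or 300 for monocytes) or of 11 other cell types (20) were set aside as other or mixed. Microglial states needed 40 interferon, 5 Spp1 and Lpl, or 5 cell cycle UMIs per 10000. Thresholds were set on the marker sums after the files were seen. Members, lists and alternatives were chosen with earlier results of these data known. Doublets were kept.

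UMIs were summed per library and class, scaled to CPM, and given with exact 95% Poisson intervals. Ratios carry exact conditional (Clopper-Pearson) intervals and shares exact binomial ones. They cover counting error only, and were tested on simulated data. A count of 0 was set to a floor of 3 UMIs in the library's class. Called genes are 1.5-fold or more apart, in types and states the same way in all 3 libraries. The genes compared had at least 10 CPM in either library, or, for types and states, 100 CPM on either side in each library. All 8 members are named, with the 3 genes most like each over types (at 50 CPM or more in at least 1 point) and, from each pathway list, genes 1.5-fold apart or the highest. Relatives close to absent, Kcnj2, Rhoa, Il1b, Nt5e and Adora2b, were named after their values were seen. Clusters for the alternatives came from 2000 variable genes, 30 principal components and 15 neighbours, with Leiden at resolution 1 and without the members. Python 3.11.15, numpy 2.4.6, scipy 1.17.1, pandas 2.3.3, scanpy 1.11.5, igraph 0.11.9 and matplotlib 3.10.9 were used.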

Additional observations from a re-analysis of the deposited data

Results flagged for a closer look

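P2rx4, the ATP-gated channel gene, did not go the same way in Spp1/Lpl-high microglia of each library. Its ratio to other microglia was 1.15 [1.04–1.27] with APOE130-149 and 0.839 [0.766–0.919] with the control peptide, both after NMOSD induction, and 1.07 [0.905–1.2496] in sham. It was picked out because the APOE130-149 and control peptide libraries lie on opposite sides of 1. Each value is 1 library, and the difference between them was not tested. Against other microglia matched on UMIs per cell the ratio was 1.13, 0.780 and 1.01 in the same order.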

How the results depend on the processing

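No paired analysis was possible because each group is 1 library, and for the same reason no replicate could be left out. Of the counts of members at least 1.5-fold apart, none of the 3 comparisons between groups moved from 0 under any alternative run. Of 60 alternatives for the counts, 53 kept them within 1.5 times and 7 did not. In border-associated macrophages the count was 0 instead of 7 with cells that carry markers of another type and 0 with Leiden clusters, in neutrophils 2 instead of 8 with Leiden clusters, and the classes then held more microglia marker RNA. In interferon-high cells it was 1 instead of 0 with a stricter gate and 3 at a lower fold. In dividing cells it was 1 instead of 5 against other microglia matched on UMIs, and members found in over 25% of microglia numbered 5 instead of 8 when cells were thinned to 1500 UMIs. The lower fold and the lower depth act by construction, and the cause of the other moves, those in border-associated macrophages and neutrophils included, was not tested. Of 392 single member values, 147 moved and none that was called changed sign. The largest move on the log2 scale was 0.16 between groups, 3.20 between types and 0.29 between states. Matching on UMIs and leaving out cells with few UMIs were added after seeing the data. A stricter gate for border-associated macrophages left at most 1 cell per library, and no cluster took the name of monocytes, so both were not run. Rescaling shifted log2 ratios by at most 0.08. Depth limits the values outside microglia, with 0 to 71 UMIs per member and library in border-associated macrophages, 3 to 158 in neutrophils and 2 to 80 in monocytes.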
